A study of Homo sapiens with 12 samples.

Results

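The MTRNR2L loci, nuclear copies of the mitochondrial ribosomal RNA gene MT-RNR2 that carry a humanin-like reading frame, were described in DU145 cells after transient exposure to decitabine, triptolide or both. Members were the rows of the deposited expected-count table whose gene symbol was MTRNR2L1 to MTRNR2L10, and all 10 were found among 26341 entries. The rule used symbols only and no measured value.

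DU145 is an established prostate cancer cell line derived from a metastasis to the central nervous system. There were 4 groups of 3 RNA libraries. DACTPL cells received both drugs, DAC cells received 33 nM decitabine, an inhibitor of DNA methyltransferases, TPL cells received 2 nM triptolide, an inhibitor of the transcription factor TFIIH, and Ctrl cells received the vehicle DMSO. The labels disagree on decitabine in the DACTPL group: one field gives 33 nM and the treatment protocol gives 3 nM, with triptolide at 2 nM in both. Every group was dosed once a day for 3 days and then kept without drug for 17 days, 20 days in all, so the libraries show cells long after exposure. All libraries came from 1 cell line, and nothing in the labels says that the 3 libraries of a group came from separate cultures, so p-values measure the spread between these libraries, which may be technical.

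Humanin is a short peptide whose reading frame lies inside MT-RNR2, the mitochondrial gene for the large ribosomal RNA of the mitochondrial ribosome. It is known as a secreted and intracellular survival factor that binds BAX and IGFBP3 and signals through receptors that include CNTFR, IL27RA and IL6ST. The MTRNR2L loci arose when pieces of mitochondrial DNA were inserted into nuclear chromosomes. Each keeps a copy of the reading frame, but the surrounding sequence also resembles MT-RNR2, a very abundant RNA in any cell, so short reads can match both. Whether the members are translated cannot be read from RNA counts.

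The reading frames show how close the members are to the mitochondrial gene and to each other, and they are shown for the 3 members with the highest levels, for 2 of the middle range and for the 2 with the lowest. Sequences were taken from GENCODE release 29 transcripts on GRCh38 by gene symbol. The deposited values were made on hg19, so positions are those of GRCh38 and not of the table. All 10 members matched a transcript of 1 exon. Capitals mark bases that differ from MT-RNR2 or are inserted relative to it, and each sequence is given 5′ to 3′ on the coding strand.
MT-RNR2: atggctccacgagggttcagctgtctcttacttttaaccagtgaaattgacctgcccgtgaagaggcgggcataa
MTRNR2L2: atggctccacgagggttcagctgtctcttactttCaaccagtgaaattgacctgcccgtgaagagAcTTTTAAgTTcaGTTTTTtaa
MTRNR2L9: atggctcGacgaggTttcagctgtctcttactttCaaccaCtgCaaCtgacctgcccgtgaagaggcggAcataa
MTRNR2L8: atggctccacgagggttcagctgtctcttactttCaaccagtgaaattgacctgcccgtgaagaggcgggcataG
MTRNR2L1: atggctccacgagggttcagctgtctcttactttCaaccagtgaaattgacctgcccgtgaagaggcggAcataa
MTRNR2L6: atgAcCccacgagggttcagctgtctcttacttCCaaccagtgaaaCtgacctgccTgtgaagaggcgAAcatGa
MTRNR2L7: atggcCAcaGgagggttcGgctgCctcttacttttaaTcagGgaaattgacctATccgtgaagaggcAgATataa
MTRNR2L5: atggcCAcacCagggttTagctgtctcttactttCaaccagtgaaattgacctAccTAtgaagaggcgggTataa

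The MT-RNR2 frame lies at chrM:2633-2707 (plus strand) and has 75 bases. MTRNR2L1 (chr17:22524062-22524136 (plus strand)) and MTRNR2L8 (chr11:10508152-10508226 (minus strand)) differ from it at 2 and 2 bases. MTRNR2L9 (chr6:61574328-61574402 (plus strand)) differs at 7, and MTRNR2L6 (chr7:142667231-142667305 (plus strand)) and MTRNR2L5 (chr10:55599900-55599974 (plus strand)) at 9 each. MTRNR2L7 (chr10:37601970-37602044 (minus strand)) differs at 12. MTRNR2L2 (chr5:80650000-80650086 (minus strand)) has a longer frame of 87 bases, identical to MT-RNR2 but for 1 base over most of its length and then unlike it at its 3′ end, with 16 differing or inserted bases in all. Of the members not printed, MTRNR2L3 on chromosome 20 differs at 9, MTRNR2L10 on chromosome X at 11 and MTRNR2L4 on chromosome 16 at 23, the last also with a frame of 87 bases.

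Over the whole transcript, MTRNR2L8 was the closest to MT-RNR2 of the 8 members whose GENCODE model reaches beyond the reading frame, with 93.1% identity in the aligned part, followed by MTRNR2L1 with 88.6%, MTRNR2L6 with 85.3% and MTRNR2L10 with 81.2%. MTRNR2L7, MTRNR2L4, MTRNR2L3 and MTRNR2L5 had 79.8%, 79.6%, 79.6% and 78.3%, with MTRNR2L4 aligning over 632 columns only. Reads were 100 bases long, so windows of 100 bases with at most 5 mismatches to MT-RNR2 were counted. There were 517 of 1204 such windows (42.9%) in MTRNR2L8, 209 of 1454 (14.4%) in MTRNR2L1, 29 of 1348 (2.15%) in MTRNR2L6, 6 of 1431 in MTRNR2L10 and 0 in MTRNR2L3, MTRNR2L4, MTRNR2L5 and MTRNR2L7. The release 29 models of MTRNR2L2 and MTRNR2L9 hold the reading frame alone, 87 and 75 bases, and were not compared further. The authors' table used other models, because its ratio of count to TPM, which follows the effective length, was 0.627 of that of MTRNR2L1 for MTRNR2L2 and 0.262 for MTRNR2L9. It was 1.09 for MTRNR2L5, 0.762 for MTRNR2L4 and 0.688 for MTRNR2L10. Their release 29 models have 739, 1762 and 1530 bases, against 1553 for MTRNR2L1, so these models also differ from those of the table. Identities and windows therefore describe the release 29 models only.

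The 10 entries together took a large part of every library. Total depth was 26430984 to 47022176 expected counts a library, and the family held 6.69, 6.15 and 7.71 in DACTPL libraries, 5.92, 5.84 and 7.43 in DAC libraries and 6.87, 6.87 and 9.07 in TPL libraries, against 7.49, 7.25 and 7.62 in Ctrl libraries, each as a percent of expected counts. The median over 12 libraries was 7.06%. The lowest library was DAC replicate 2 and the highest TPL replicate 3, and the drug groups spread widely while the 3 Ctrl libraries lay close together. Group means were 6.85 ± 0.792% in DACTPL, 6.40 ± 0.894% in DAC and 7.60 ± 1.27% in TPL, against 7.45 ± 0.188% in Ctrl (SD, n = 3 each). The 95% Wilson interval of a single library's share was at most 0.0200 percentage points wide, covering counting error only, less than the SD of any group.

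**Figure D1:**
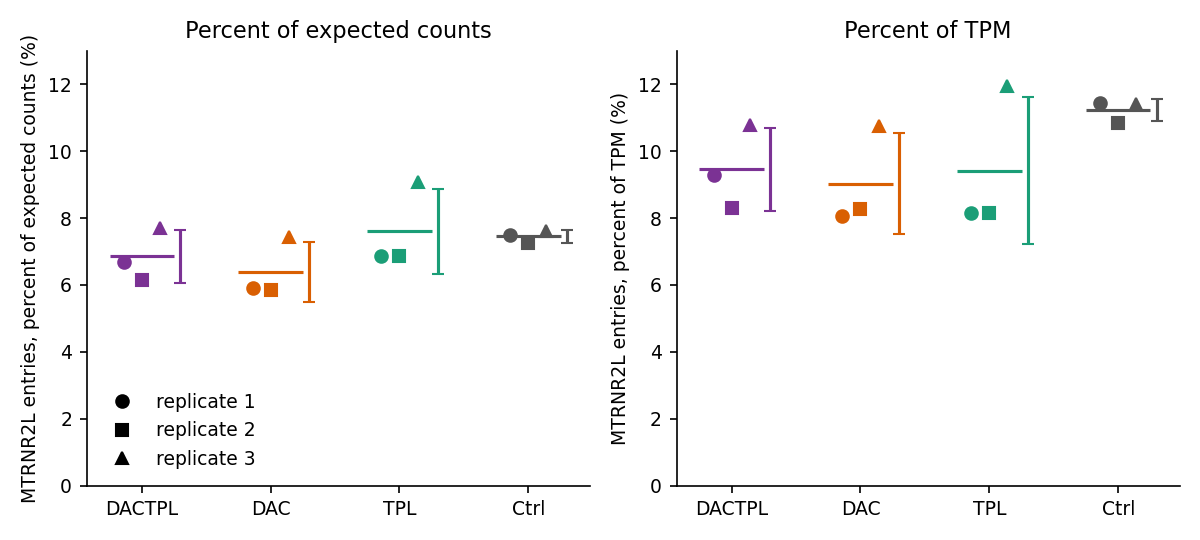
Summed level of the 10 MTRNR2L entries in each library, as a percent of expected counts (left) and of TPM (right). Points are libraries by group and replicate, horizontal lines are group means and bars are 1 SD (n = 3), and replicate 3 is the highest point of the DACTPL, DAC and TPL groups on both scales.

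The members fell into 3 levels. TPM, a value per length that sums to the same total in each library, allows members to be compared. MTRNR2L2, MTRNR2L9 and MTRNR2L8 had 16822 to 61386 TPM and held 91.3% to 92.6% of the family's counts. MTRNR2L1, MTRNR2L6, MTRNR2L3 and MTRNR2L10 had 485 to 2176 TPM and held 7.43% to 8.70%. MTRNR2L4, MTRNR2L7 and MTRNR2L5 had 0.37 to 5.24 TPM and held 0.00623% to 0.0110%. No library moved a member from one level to another.

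MTRNR2L2, on chromosome 5, had the highest expected count of all 26341 entries in each of the 12 libraries. Its TPM was 46525, 40977 and 54855 in DACTPL libraries, 40686, 41716 and 54078 in DAC libraries and 41399.9, 41010.2 and 61386 in TPL libraries, against 57752, 54688 and 57407 in Ctrl libraries. In TPM the Ctrl libraries lay above all DACTPL and DAC libraries but for DACTPL replicate 3, which lay within the Ctrl range, and TPL replicate 3 was the highest of all. As a percent of counts, DACTPL replicate 3, at 4.12%, lay above the Ctrl range of 3.84% to 4.04%, and DAC replicate 3, at 3.91%, lay within it. MTRNR2L2 averaged 3.75% of the counts of a library, and by TPM it ranked between 3 and 5, behind small structural RNAs such as RPPH1, the RNA subunit of RNase P, and RMRP, the RNA subunit of RNase MRP.

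MTRNR2L9, on chromosome 6, had TPM values of 20655, 19777 and 24609.6 in DACTPL libraries, 18226, 18552 and 24266 in DAC libraries and 18831, 19074 and 26734 in TPL libraries, against 26202, 24923 and 26449 in Ctrl libraries. MTRNR2L8, on chromosome 11, had TPM values of 20899, 17561 and 22990.4 in DACTPL libraries, 17599, 17923 and 23541 in DAC libraries and 16822, 16919 and 25483 in TPL libraries, against 24594, 23364 and 24348 in Ctrl libraries. In both, as in MTRNR2L2, replicate 3 was the highest library of each drug group and TPL replicate 3 the highest of all. All DACTPL and DAC libraries lay below the Ctrl libraries in TPM for MTRNR2L9. For MTRNR2L8 DAC replicate 3 lay within the Ctrl range and the DACTPL libraries lay below it. As a percent of counts, DACTPL replicate 3 lay within the Ctrl range for MTRNR2L9 (0.771% against 0.728% to 0.772%) and above it for MTRNR2L8 (2.23% against 2.12% to 2.21%). MTRNR2L9 and MTRNR2L8 could not be ordered beyond their spread: their means were 22358 ± 3442 and 21004 ± 3401 TPM (SD over 12 libraries), although MTRNR2L9 was above MTRNR2L8 in 11 of 12 libraries. MTRNR2L2, at 49373 ± 8010 TPM, did not overlap either.

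In the middle level, MTRNR2L1 on chromosome 17 had TPM values of 1738, 1618 and 2022 in DACTPL libraries, 1533, 1515 and 2021 in DAC libraries and 1524, 1581 and 2176 in TPL libraries, against 2129.7, 2049 and 2148 in Ctrl libraries. MTRNR2L6 on chromosome 7 had TPM values of 1611, 1800.0 and 1875 in DACTPL libraries, 1428, 1513 and 1915 in DAC libraries and 1573, 1580.3 and 2085 in TPL libraries, against 2099.7, 1949 and 2064 in Ctrl libraries. Their means, 1838 ± 274 and 1791 ± 241 TPM, lay within their spread, with MTRNR2L1 the higher in 10 of 12 libraries. MTRNR2L3 on chromosome 20 had TPM values of 962, 751 and 852 in DACTPL libraries, 616, 833 and 1181 in DAC libraries and 755, 701 and 894 in TPL libraries, against 1006, 799.6 and 888 in Ctrl libraries. MTRNR2L10 on chromosome X had TPM values of 485, 636 and 608 in DACTPL libraries, 519.6, 502 and 604 in DAC libraries and 523, 533 and 728 in TPL libraries, against 718, 699.5 and 720.4 in Ctrl libraries. MTRNR2L3 was above MTRNR2L10 in 12 of 12 libraries, but the ranges overlapped. MTRNR2L3 was the one middle member whose highest library was in the DAC group, replicate 3, and its group ranges overlapped throughout. For MTRNR2L1, MTRNR2L6 and MTRNR2L10, as for MTRNR2L9, the DAC and DACTPL libraries all lay below the Ctrl libraries in TPM. As a percent of counts, DACTPL replicate 2, at 0.0544% for MTRNR2L10, lay within the Ctrl range of 0.0539% to 0.0556%. DACTPL replicate 3 lay above the Ctrl range of 0.230% to 0.241% for MTRNR2L1, at 0.243%. For MTRNR2L6 it lay within the Ctrl range of 0.193% to 0.205%, at 0.199%. On log2(TPM + 1) the median of all genes was itself -0.11 in DACTPL and -0.077 in DAC against Ctrl. The step between MTRNR2L8 and MTRNR2L1 was 11.4-fold in mean TPM.

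The low level lay 150-fold under MTRNR2L10. MTRNR2L4, on chromosome 16, had expected counts of 120.3, 112 and 135 in DACTPL libraries, 112, 85.6 and 149 in DAC libraries and 98.95, 149 and 140.1 in TPL libraries, against 142, 130.1 and 198 in Ctrl libraries. MTRNR2L7, on chromosome 10, had expected counts of 32.1, 49.9 and 54.5 in DACTPL libraries, 47.1, 30.8 and 33.0 in DAC libraries and 25.2, 56.2 and 48.1 in TPL libraries, against 32.1, 36.7 and 71.1 in Ctrl libraries. MTRNR2L5, also on chromosome 10, had expected counts of 28.1, 25.9 and 17.1 in DACTPL libraries, 27.7, 17.8 and 20.03 in DAC libraries and 15.2, 28.9 and 29.6 in TPL libraries, against 41.1, 21.9 and 51.9 in Ctrl libraries. These 3 members had 15 to 198 counts a library, so counting error is part of their spread, and the coefficient of variation of TPM over 12 libraries was 30.0% for MTRNR2L5 and 28.6% for MTRNR2L7, against 13.4% to 19.1% for the other 8 members. In TPM, MTRNR2L4 averaged 4.04 ± 0.770, MTRNR2L7 1.08 ± 0.310 and MTRNR2L5 0.575 ± 0.173 (SD over 12 libraries). MTRNR2L7 and MTRNR2L5 overlapped, with MTRNR2L7 the higher in 11 of 12 libraries.

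**Figure D2:**
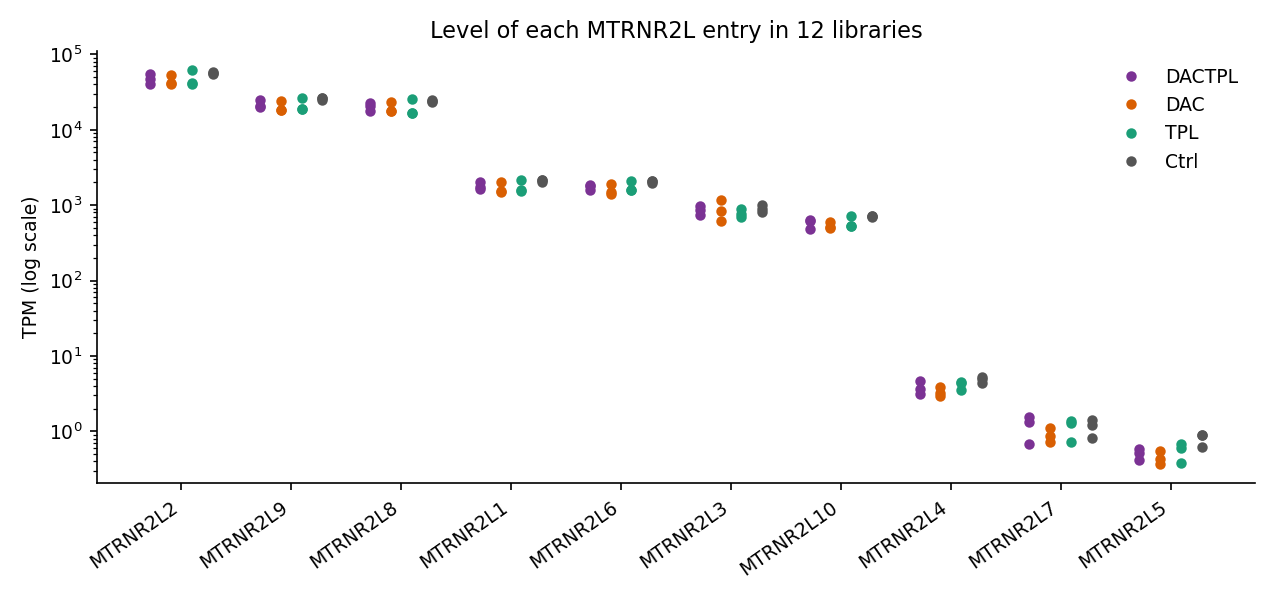
TPM of each of the 10 MTRNR2L entries (log axis) in the 12 libraries, with members ordered by mean TPM and libraries coloured by group, DACTPL, DAC, TPL and Ctrl from left to right. The members form 3 levels, and the points of the 4 groups lie close together within each member.

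Level and likeness to MT-RNR2 were set side by side as a description, with no test. By identity, MTRNR2L8 was the closest of the 8 compared and had the highest level of the 8, and MTRNR2L5 was the least like and had the lowest. By the fewest mismatches in any 100-base window MTRNR2L7 was the least like, with 10 against 8 for MTRNR2L5. Identity alone did not order the rest: MTRNR2L3, MTRNR2L4 and MTRNR2L7 had 79.6%, 79.6% and 79.8% identity but mean TPM of 853, 4.04 and 1.08. The longest run shared exactly with MT-RNR2 was 88 bases in MTRNR2L8, 62 in MTRNR2L10, 60 in MTRNR2L1 and 55 in MTRNR2L6. It was 45 in MTRNR2L3, 35 in MTRNR2L4, 33 in MTRNR2L5 and 32 in MTRNR2L7. This run did not order the levels either: MTRNR2L10, at a mean of 606 TPM, lay below MTRNR2L1, MTRNR2L6 and MTRNR2L3. None of 30 symbols of genes encoded in mitochondrial DNA, MT-RNR2 among them, had an entry in the table, so the level of the mitochondrial RNA itself was not analysed here. How reads that match several places were treated is not given in the sources used here. Of 82 member values above 0 and under 100000, 1 was within 0.005 of a whole number, against 48.9% of 220288 such values of the other entries. A non-whole expected count arises when a read is divided between places, so nearly all of these 82 values hold divided reads. The 38 member values of 100000 or more, which include all values of MTRNR2L2, MTRNR2L8 and MTRNR2L9, were not examined in this way. How many counts of the family came from reads of MT-RNR2 was not tested.

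**Figure D3:**
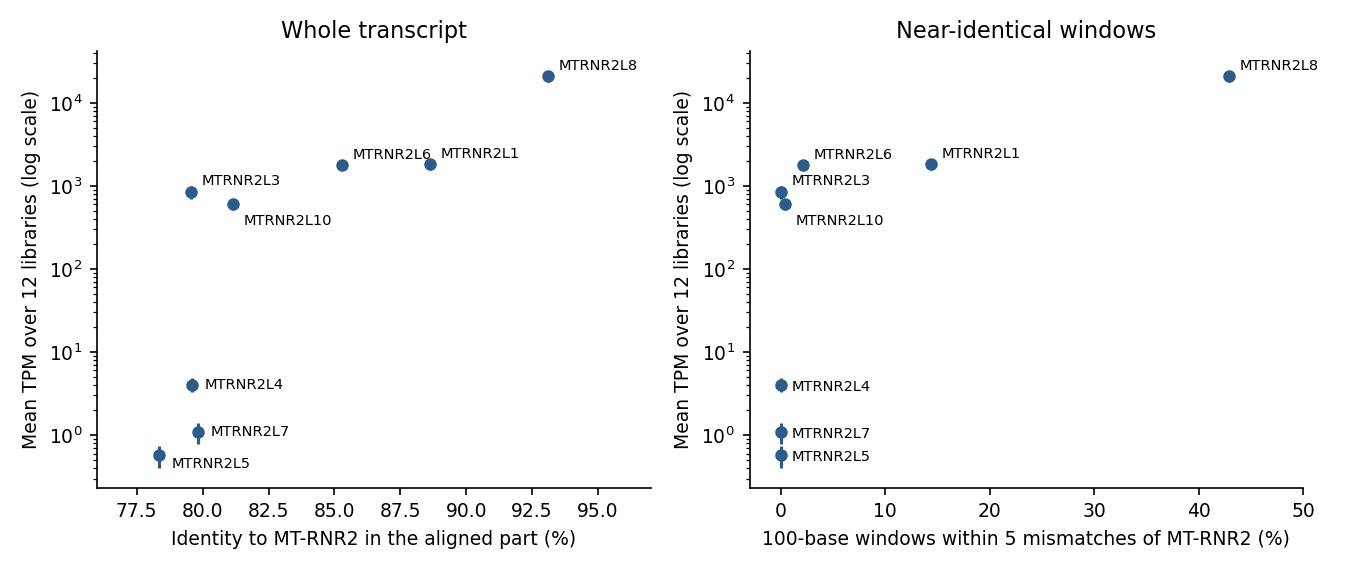
Mean TPM over 12 libraries (log axis, bars 1 SD) of the 8 MTRNR2L entries whose GENCODE model reaches beyond the reading frame, against identity to MT-RNR2 in the aligned part (left) and against the percent of 100-base windows within 5 mismatches of MT-RNR2 (right). Sequences are GENCODE models, which differ from the models behind TPM at least for MTRNR2L4, MTRNR2L5 and MTRNR2L10. MTRNR2L8 lies at the top right of both panels, and MTRNR2L3, MTRNR2L4 and MTRNR2L7 share one identity at levels of 853, 4.04 and 1.08 TPM.

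Counts of the abundant members moved together from library to library. Over 12 libraries, log2 CPM (counts scaled to the library total) of a member and of the sum of the other 9 had a Pearson r of 0.99 for MTRNR2L2 and MTRNR2L1, 0.98 for MTRNR2L9 and MTRNR2L8 and 0.87 for MTRNR2L6. For MTRNR2L10, MTRNR2L4 and MTRNR2L3 it was 0.75, 0.73 and 0.57. For MTRNR2L5 and MTRNR2L7 it was 0.31 and 0.28. These values are descriptions: the members share libraries, depth and divided reads.

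The first question was whether the family's level differed between drug-treated and vehicle-treated cells 17 days after the last dose. No member passed the test in cells given both drugs. In DACTPL against Ctrl, 0 of 10 members were called by edgeR's quasi-likelihood test at an adjusted p below 0.05, beside 13.5% of all 15890 genes tested, and 0 had an unadjusted p below 0.05. DESeq2 also called 0. The median member log2 fold change was -0.08, against 0.013 over all genes tested, and 8 of 10 members lay below 0. The largest was MTRNR2L5, whose log2 fold change was -0.53 ± 0.26 SE (adjusted p = 0.206), and MTRNR2L2 had -0.094 ± 0.14 SE (adjusted p = 0.700). The summed family had a log2 fold change -0.085 ± 0.13 SE, adjusted p = 0.725, and the 95% interval of its fold was 0.774 to 1.15.

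With decitabine alone the mean family share was the lowest of the 4 groups, but no member passed the test in the fit of 12 libraries without a replicate block. In DAC against Ctrl, 0 of 10 members were called by edgeR, beside 9.87% of all genes tested, and DESeq2 called 0, but 4 members had an unadjusted p below 0.05. Those 4 were MTRNR2L5 whose log2 fold change was -0.75 ± 0.26 SE (adjusted p = 0.0936), MTRNR2L4 with -0.43 ± 0.16 SE (adjusted p = 0.119), MTRNR2L10 with -0.29 ± 0.12 SE (adjusted p = 0.142) and MTRNR2L6 with -0.23 ± 0.10 SE (adjusted p = 0.192). MTRNR2L2 had -0.21 ± 0.14 SE (adjusted p = 0.362). The median over the members was -0.23 on the log2 scale, against 0.0063 over all genes tested, and 9 of 10 members lay below 0, all but MTRNR2L3. The summed family had a log2 fold change -0.20 ± 0.13 SE, adjusted p = 0.360, with a fold interval of 0.713 to 1.06. Without DAC replicate 3, the DAC library with the highest family level, MTRNR2L6 passed with a log2 fold change of -0.34 and adjusted p = 0.0459, and the family stood at -0.33 (adjusted p = 0.133). In that fit 1 of 10 members was called, beside 1540 of 16055 genes tested. With the replicate number as a block, 4 of 10 members were called by edgeR, beside 16.2% of all genes tested. The family then stood at -0.22 (adjusted p = 0.0600). Same-numbered libraries of DAC and Ctrl correlated at 0.067 to 0.43, not all over 0.1, so replicate numbers may not pair these groups.

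Triptolide alone gave no called member either. In TPL against Ctrl, 0 of 10 members were called by edgeR, beside 2.47% of all genes tested, 0 had an unadjusted p below 0.05, and DESeq2 called 0. The median member log2 fold change was 0.12, against -0.00034 over all genes tested, with 9 of 10 above 0. MTRNR2L7 had the largest, 0.32 ± 0.34 SE (adjusted p = 0.651), and MTRNR2L2 had 0.13 ± 0.14 SE (adjusted p = 0.664). The summed family had a log2 fold change 0.11 ± 0.13 SE, adjusted p = 0.698, with a fold interval of 0.886 to 1.32. On log2(TPM + 1) with limma the family stood at -0.28 in TPL against Ctrl, where the median of all genes was itself -0.29, a difference of 0.010 from that median. Same-numbered libraries of TPL and Ctrl deviated together (correlations of 0.14 to 0.44), and with the replicate number as a block 0 of 10 members were called, beside 8.11% of all genes tested, with the family at 0.094 (adjusted p = 0.458). The positive direction also rested on TPL replicate 3, the library with the highest family share, since without it the family stood at -0.044 (adjusted p = 0.863).

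**Figure D4:**
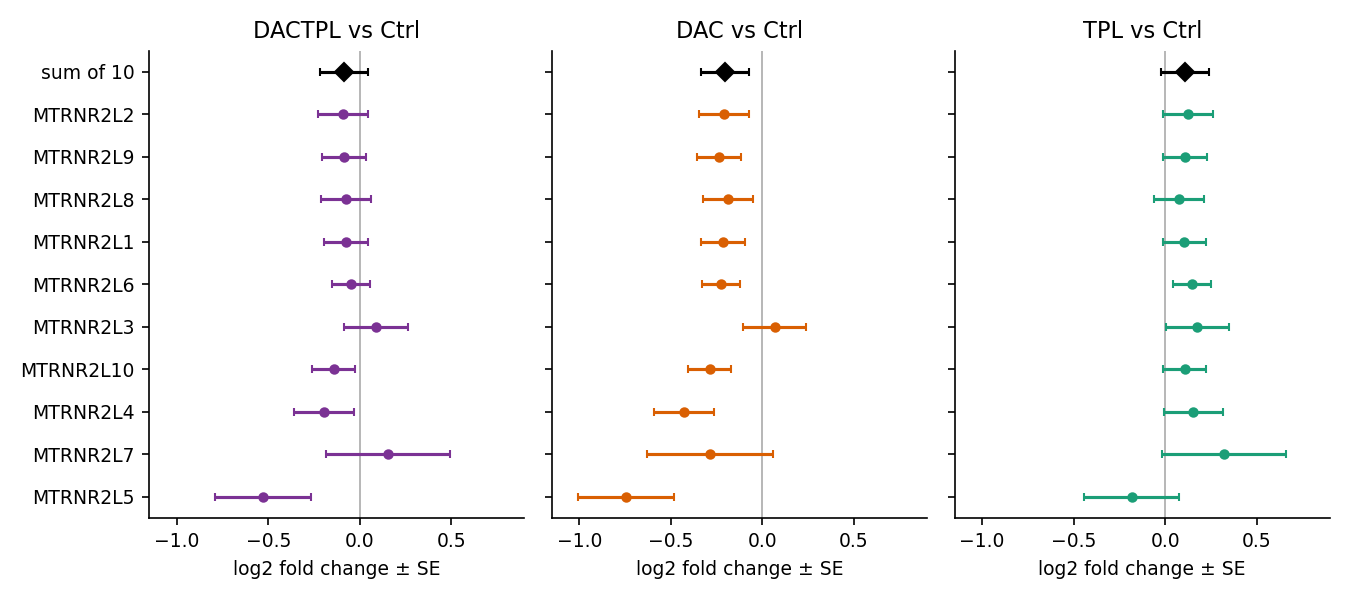
Log2 fold change with its SE (bars) of the summed family (diamonds, top) and of each MTRNR2L entry (points) in DACTPL, DAC and TPL libraries, each against Ctrl libraries, from edgeR's fit of 12 libraries without a replicate block. The family lies at -0.08, -0.20 and 0.11 in the 3 panels, and no entry passed an adjusted p of 0.05. On log2(TPM + 1) the family stood at -0.28 in TPL against Ctrl.

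The second question was whether adding one drug to the other moved the family. In DACTPL against DAC, 0 of 10 members were called by edgeR, beside 0.0315% of all genes tested, and 0 had an unadjusted p below 0.05. The summed family had a log2 fold change 0.12 ± 0.13 SE, adjusted p = 0.638, with a fold interval of 0.891 to 1.32, and all 10 members lay above 0 with a median of 0.15. In DACTPL against TPL, 0 of 10 were called, beside 10.5% of all genes tested, and 0 had an unadjusted p below 0.05. The summed family had a log2 fold change -0.19 ± 0.13 SE, adjusted p = 0.378, with a fold interval of 0.717 to 1.06, and all 10 members lay below 0 with a median of -0.19, while on log2(TPM + 1) the family stood at 0.024 with the median of all genes at 0.16. DESeq2 called 0 members in both. Members share reads and libraries, so 10 members on one side of 0 do not count as 10 observations. The interaction, which asks whether the effect of both drugs differed from the sum of the single effects on the log scale, gave 0 of 10 members called beside 0.00629% of all genes tested, 0 at an unadjusted p below 0.05 and 0 by DESeq2, and the family had a log2 fold change 0.0086 ± 0.19 SE, adjusted p = 0.991. Comparisons that share the Ctrl or the DACTPL libraries are not independent of each other.

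The authors' deposited table of DESeq2 comparisons held all 10 members in 5 comparisons, and none of these had an adjusted p below 0.05 there (0 of 10 in each comparison). In the authors' deposited table the member log2 fold changes ran between -0.24 and 0.064 for DACTPL against Ctrl, between -0.34 and 0.046 for DAC against Ctrl and between -0.098 and 0.14 for TPL against Ctrl. In the authors' deposited table the smallest adjusted p of a member was 0.102, for DAC against Ctrl.

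The share of counts was also compared directly by exact permutation tests of 3 libraries against 3, in which the smallest two-sided p is 0.1, so no such test could pass 0.05. As a percent of expected counts the family differed by -0.598 percentage points in DACTPL against Ctrl (exact permutation p = 0.4), by -1.05 in DAC against Ctrl (exact permutation p = 0.2) and by 0.153 in TPL against Ctrl (exact permutation p = 1.0). It differed by 0.455 points in DACTPL against DAC and by -0.751 in DACTPL against TPL (exact permutation p = 0.5 each). After Benjamini-Hochberg adjustment over the 5 comparisons the values were 0.625, 0.625, 1.0, 0.625 and 0.625. The ranges of every pair overlapped.

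On the TPM scale the picture of the share differed. The family held 9.46 ± 1.24% of TPM in DACTPL, 9.03 ± 1.51% in DAC and 9.41 ± 2.20% in TPL, against 11.2 ± 0.335% in Ctrl (SD, n = 3 each), and neither the DACTPL nor the DAC libraries overlapped the Ctrl libraries (exact permutation p = 0.1 each, the smallest possible, adjusted 0.25). Small structural RNAs took 33.1% to 46.2% of TPM, and the 3 lowest of those values were the Ctrl libraries. With these RNAs left out of the TPM total, a setting chosen after the data were seen, the family held 15.7 ± 1.67% in DACTPL, 14.3 ± 2.20% in DAC and 16.9 ± 3.20% in TPL, against 17.1 ± 0.528% in Ctrl, and the groups overlapped (exact permutation p = 0.4 for DACTPL, 0.2 for DAC and 1.0 for TPL, each against Ctrl).

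The 3 most abundant members kept a nearly constant part of the family total, while the less abundant ones varied more. The coefficient of variation of the share of family counts over 12 libraries was 1.01% for MTRNR2L2, 2.00% for MTRNR2L8 and 2.43% for MTRNR2L9, and 2.17% for MTRNR2L1 and 6.90% for MTRNR2L6. It was 13.5% for MTRNR2L3, which held 1.08% to 1.60% of family counts, and 9.999% for MTRNR2L10, which held 0.597% to 0.885%. For MTRNR2L4, MTRNR2L5 and MTRNR2L7 it was 14.6%, 25.9% and 31.0%, at counts where counting error is large. MTRNR2L2 held 52.2, 52.01 and 53.5 in DACTPL libraries, 52.9, 52.9 and 52.6 in DAC libraries and 53.6, 53.2 and 53.9 in TPL libraries, against 52.99, 53.02 and 53.04 in Ctrl libraries, each as a percent of family counts. Its group means were 52.6 ± 0.80% in DACTPL, 52.8 ± 0.18% in DAC and 53.5 ± 0.36% in TPL, against 53.02 ± 0.027% in Ctrl (SD, n = 3 each). The 3 TPL libraries lay above and the 3 DAC libraries below the Ctrl libraries, by 0.533 and -0.219 percentage points (exact permutation p = 0.1 each, adjusted 0.25 over 5 comparisons). On the TPM scale neither group stood apart in the MTRNR2L2 share: the difference in DAC was 0.021 points with overlapping libraries, and TPL replicate 2, at 50.4%, lay within the Ctrl range. MTRNR2L8 held 29.3 ± 0.84% in DACTPL, 29.5 ± 0.13% in DAC and 28.4 ± 0.41% in TPL, against 29.1 ± 0.095% in Ctrl, and MTRNR2L9 held 10.1 ± 0.43%, 9.84 ± 0.021% and 10.1 ± 0.28% in DACTPL, DAC and TPL, against 10.1 ± 0.060% in Ctrl. For MTRNR2L8 the DAC libraries lay above and the TPL libraries below the Ctrl libraries on both scales. The differences were 0.330 and -0.718 percentage points of family counts and 0.350 and -0.534 of family TPM (exact permutation p = 0.1 each, adjusted 0.25). DACTPL replicate 2 had the lowest MTRNR2L2 share of the 12 libraries and the highest MTRNR2L9 share. In the DAC, TPL and Ctrl groups, the spread of the MTRNR2L2 share within a group was under 1 percentage point.

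Library features were set beside the family's share, and not all of them moved with it. Replicate 3 had the highest share in the DACTPL, DAC, TPL and Ctrl groups. A length trend was computed in each library as the Spearman correlation, across 12787 coding genes, of effective length with the gene's deviation from its mean log2 CPM of the library total over 12 libraries. It is positive where long genes stand high. The trend was -0.224, 0.344 and 0.272 in DACTPL libraries, -0.237, -0.353 and 0.113 in DAC libraries and -0.461, -0.452 and 0.174 in TPL libraries, against 0.271, 0.199 and 0.282 in Ctrl libraries. Replicate 3 of the DAC and TPL groups had a positive trend while replicates 1 and 2 had a negative one, and all Ctrl libraries were positive. DACTPL replicate 2 went the other way, with the highest trend of all and a low family share. Small structural RNAs held 3.10, 3.45 and 2.94 in DACTPL libraries, 2.94, 2.94 and 2.77 in DAC libraries and 4.50, 4.63 and 3.44 in TPL libraries, against 2.12, 2.23 and 2.39 in Ctrl libraries, each as a percent of counts. All Ctrl libraries were below all drug-treated libraries in this share. It did not order the libraries by family share: DAC replicate 2 and DACTPL replicate 3 both had 2.94% small structural RNAs, at family shares of 5.84% and 7.71%. The part of length trend, small RNAs or replicate in the family's level was not tested. With replicates numbered 3 left out of all groups, the summed family fell by 0.31 on the log2 scale in DAC against Ctrl (edgeR adjusted p = 0.00501, 5 members called beside 17.6% of all genes) and by 0.19 in DACTPL against Ctrl (adjusted p = 0.0428, 3 members called beside 24% of all genes). In TPL against Ctrl 0 members were then called, beside 11.7% of all genes, and in DACTPL against TPL 4 were called, each lower in DACTPL, beside 23.3%. This fit rests on 2 libraries a group. The libraries left out had the highest family share of their groups, 7.71%, 7.43% and 9.07% in DACTPL, DAC and TPL, against 7.62% in Ctrl. Leaving them out lowers the drug groups more than Ctrl and narrows their spread, so its adjusted p-values cannot decide whether the family differed.

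**Figure D5:**
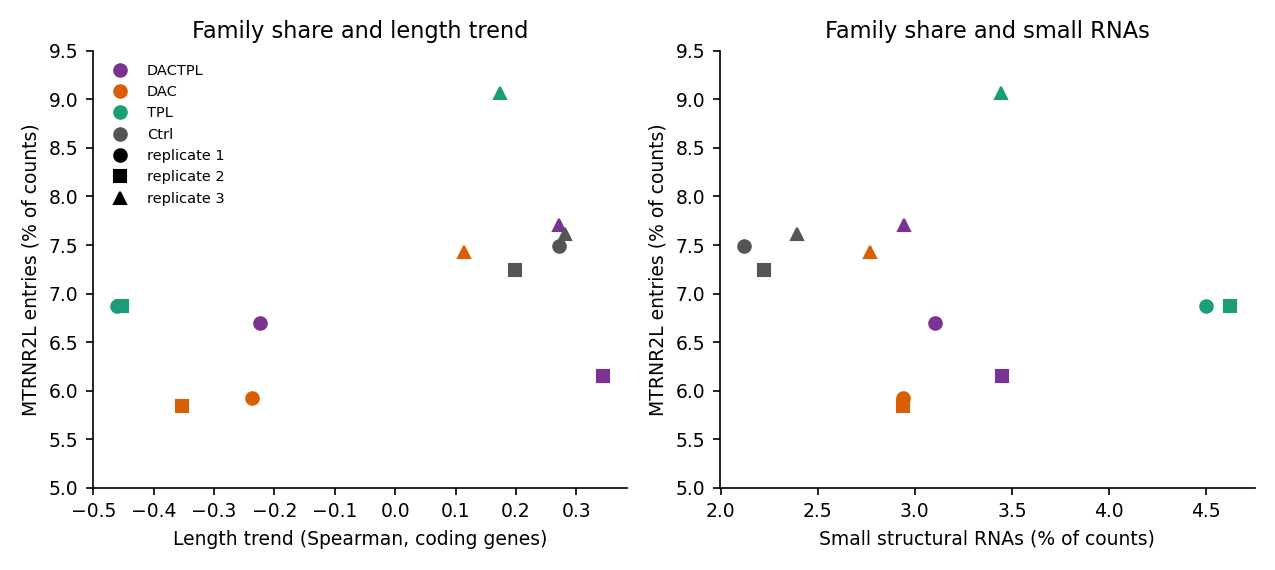
Percent of expected counts held by the MTRNR2L entries in each library against the library's length trend (left) and against the percent of counts held by small structural RNAs (right). Colours are groups and symbols are replicates, the vertical axis starts at 5%, and the 5 libraries with a negative length trend all lie below 7% of counts.

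Genes that act with humanin were examined next. Of 17 symbols of humanin receptors and partners, 16 were in the table and 12 were tested. CNTFR, a receptor subunit for humanin, and the formyl peptide receptors FPR1, FPR2 and FPR3 had 16, 2, 1 and 0 expected counts over all 12 libraries and were not tested. One of the 12 passed, in DACTPL against Ctrl, where 13.5% of all genes passed, in DAC against Ctrl (9.87%) and in DACTPL against TPL (10.5%), a share near that of all genes. It was VSTM2L, a secreted protein known to bind humanin and oppose its protective effect. VSTM2L had CPM values of 11.8, 10.2 and 11.8 in DACTPL libraries, 8.64, 9.33 and 12.2 in DAC libraries and 18.3, 18.5 and 22.9 in TPL libraries, against 14.7, 14.99 and 18.03 in Ctrl libraries. Every DACTPL and DAC library lay below every Ctrl library, and on this TMM-scaled CPM every TPL library lay above every Ctrl library. The narrowest TPL gap, 18.3 against 18.03, depends on the TMM factors, which were 0.978 for TPL replicate 1 and 1.018 for Ctrl replicate 3. VSTM2L fell by 0.66 ± 0.14 SE on the log2 scale in DAC against Ctrl (edgeR adjusted p = 0.00847), by 0.50 ± 0.13 in DACTPL against Ctrl (adjusted p = 0.0278) and by 0.82 ± 0.14 in DACTPL against TPL (adjusted p = 0.00201). The first and the last of these passed in all 20 other settings. The call in DACTPL against Ctrl was lost without DACTPL replicate 2 or 3 or Ctrl replicate 2 or 3 (adjusted p up to 0.0999). In those comparisons 11 of 12 tested genes did not pass, and in TPL against Ctrl and DACTPL against DAC 0 of 12 passed by edgeR, with 2 and 1 at an unadjusted p below 0.05, and 0 passed by DESeq2.

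The most abundant of the list were KPNB1, a nuclear import receptor, with CPM values of 545, 505 and 524 in DACTPL libraries, 587, 581 and 570.4 in DAC libraries and 538, 542 and 522 in TPL libraries, against 576, 564 and 546 in Ctrl libraries, and STAT3, a transcription factor activated by the humanin receptor, with CPM values of 326, 344 and 337 in DACTPL libraries, 317, 321 and 363 in DAC libraries and 335, 339.9 and 406 in TPL libraries, against 345, 326 and 373 in Ctrl libraries. IL6ST, the shared signalling subunit of that receptor, had CPM values of 296, 291 and 316 in DACTPL libraries, 294, 282 and 302 in DAC libraries and 294, 307 and 363 in TPL libraries, against 280.0, 294 and 323 in Ctrl libraries. BAX, the pro-death protein that humanin binds, had CPM values of 9.19, 6.82 and 8.64 in DACTPL libraries, 9.22, 9.75 and 9.70 in DAC libraries and 9.44, 7.91 and 8.24 in TPL libraries, against 8.39, 9.0 and 9.53 in Ctrl libraries. The group ranges of STAT3 and IL6ST overlapped throughout. The DACTPL libraries lay below the DAC and Ctrl libraries for KPNB1 and below the DAC libraries for BAX, and none of these 4 genes passed in any comparison. IGFBP3, a growth factor carrier that binds humanin and was picked out here after its values were seen, had CPM values of 58.3, 55.1 and 70.5 in DACTPL libraries, 24.4, 24.7 and 63.7 in DAC libraries and 30.3, 33.3 and 72.0 in TPL libraries, against 19.8, 19.3 and 46.3 in Ctrl libraries. Its replicate 3 was the highest library in each of the 4 groups, as it was for the family's share of counts, and it passed in no comparison.

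Genes that make or mature mitochondrial ribosomal RNA mostly did not pass the test. Of 34 tested, 0 rose and 2 fell in DACTPL against Ctrl, beside 13.5% of all genes called, and 1 rose and 0 fell in DAC against Ctrl, beside 9.87%. None passed in TPL against Ctrl, beside 2.47%, or in DACTPL against DAC, beside 0.0315%, and 2 fell in DACTPL against TPL, beside 10.5%. In the comparisons without a call, 2 and 8 of them had an unadjusted p below 0.05 by edgeR, and DESeq2 called 0. The genes that fell in DACTPL were the same in both comparisons. MTERFD2 (MTERF4), which helps assemble the large mitochondrial ribosomal subunit, had CPM values of 14.04, 12.6 and 12.3 in DACTPL libraries, 15.9, 14.8 and 14.9 in DAC libraries and 16.7, 16.2 and 16.2 in TPL libraries, against 16.4, 16.2 and 16.4 in Ctrl libraries, with every DACTPL library below every other library, and fell by 0.33 ± 0.065 SE against Ctrl (adjusted p = 0.00503) and by 0.33 ± 0.066 against TPL (adjusted p = 0.00643). TFB1M, which methylates the small mitochondrial ribosomal RNA, had CPM values of 9.77, 9.49 and 10.9 in DACTPL libraries, 12.8, 12.1 and 10.2 in DAC libraries and 14.6, 14.98 and 11.1 in TPL libraries, against 14.03, 14.1 and 11.95 in Ctrl libraries and fell by 0.41 ± 0.12 against Ctrl (adjusted p = 0.0422). TRUB2, a mitochondrial pseudouridine synthase, had CPM values of 64.4, 56.9 and 56.8 in DACTPL libraries, 67.2, 71.1 and 56.8 in DAC libraries and 65.5, 68.8 and 57.02 in TPL libraries, against 53.6, 51.1 and 52.4 in Ctrl libraries and rose by 0.31 ± 0.089 in DAC against Ctrl (adjusted p = 0.0438). TFB1M lost its call against Ctrl in 6 and TRUB2 in 12 of 20 other settings, leaving out single libraries of their own groups among them (adjusted p up to 0.149 and 0.190). Against TPL, TFB1M lost its call in 10 and MTERFD2 in 1 of 20 other settings (adjusted p up to 0.164 and 0.264). The median of the list was -0.0045 in DACTPL, 0.083 in DAC and 0.0050 in TPL, each against Ctrl on the log2 scale, beside 0.013, 0.0063 and -0.00034 over all genes tested.

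Of 48 tested proteins of the large mitochondrial ribosomal subunit, whose RNA is MT-RNR2, 1 rose in DACTPL, 2 in DAC and 6 in TPL, each against Ctrl, and 0 fell. Over all genes 13.5%, 9.87% and 2.47% were called in these comparisons, so the counts lay below that share in DACTPL and DAC and above it in TPL. Their median log2 fold changes were 0.0050 in DACTPL, 0.16 in DAC and 0.14 in TPL. MRPL44 rose in DACTPL by 0.27 ± 0.060 SE (adjusted p = 0.0106) and in DAC by 0.28 ± 0.060 SE (adjusted p = 0.0109). MRPL54 rose in TPL by 0.64 ± 0.12 SE (adjusted p = 0.0196) and MRPL34 by 0.41 ± 0.075 SE (adjusted p = 0.0199). MRPL54 had CPM values of 25.3, 22.3 and 22.6 in DACTPL libraries, 23.7, 24.1 and 22.5 in DAC libraries and 32.5, 33.05 and 22.6 in TPL libraries, against 19.2, 18.2 and 19.2 in Ctrl libraries, and TPL replicate 3 lay with the DACTPL and DAC libraries while TPL replicates 1 and 2 stood above all others. MRPL34 was also the 1 gene of the list called in DACTPL against TPL, where it fell by 0.29 ± 0.075 (adjusted p = 0.0255). MRPL54 and MRPL34 lost their TPL calls without TPL replicate 1 or 2 or Ctrl replicate 1 or 2 (adjusted p up to 0.110 and 0.119 in those fits). Over all 20 other settings MRPL34 lost this call in 5, with a log2 fold change down to 0.027 (adjusted p up to 0.749). Of 31 nuclear genes of the respiratory chain, 1, 4 and 2 rose in DACTPL, DAC and TPL against Ctrl and 0 fell, beside the same shares of all genes. NDUFS3, a subunit of complex I, rose in DACTPL by 0.28 ± 0.078 SE (adjusted p = 0.0308) and in DAC by 0.31 ± 0.078 SE (adjusted p = 0.0244), and COX5B, a subunit of cytochrome c oxidase, rose in DAC by 0.33 ± 0.091 SE (adjusted p = 0.0363). Of 20 other settings, NDUFS3 lost its call in 7 in DACTPL (adjusted p up to 0.273) and in 5 in DAC (up to 0.0984), and COX5B in 7 (up to 0.159), each without Ctrl replicate 1 or 2 and without replicate 1 or 2 of the drug group among them. MRPL44 lost its call in 1 setting in DACTPL (up to 0.207) and in 3 in DAC (up to 0.0922), without DAC replicate 2 or Ctrl replicate 1 among them. MRPL34 lost its call against TPL in 6, without DACTPL replicate 2 or 3 or TPL replicate 1 or 2 among them (up to 0.408). These lists hold many short, abundant messages, and the length trend above differed between the same libraries, so its part in their calls was not tested.

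Of the other abundant structural RNAs, RPPH1 had CPM of the library total values of 18120.1, 19011 and 16381 in DACTPL libraries, 15916, 17169 and 15463 in DAC libraries and 28603, 30401 and 20864 in TPL libraries, against 10574, 11208 and 12852 in Ctrl libraries. It rose in DACTPL by 0.66 ± 0.12 SE (adjusted p = 0.00358), in DAC by 0.50 ± 0.12 SE (adjusted p = 0.0226) and in TPL by 1.28 ± 0.13 SE (adjusted p = 4.91e-04), each against Ctrl on the log2 scale. RMRP also rose, in DACTPL by 0.44 ± 0.058 SE (adjusted p = 3.38e-04), in DAC by 0.28 ± 0.058 SE (adjusted p = 0.00829) and in TPL by 0.36 ± 0.058 SE (adjusted p = 0.0127), where it stood at -0.041 on log2(TPM + 1) with limma. Of 19 other settings, RPPH1 lost its call in DAC in 5, without DAC replicate 1 or 2 or Ctrl replicate 1 or 2 among them (adjusted p up to 0.106), and in none in DACTPL or TPL. RMRP lost its call in 1 setting in DACTPL, in 2 in DAC, without Ctrl replicate 1 among them, and in 4 in TPL, without TPL replicate 1 or Ctrl replicate 1 or 2 among them (up to 0.0592, 0.260 and 0.705).

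Among 13597 other entries with a mean of at least 1 CPM, the 5 whose log2 CPM was most like the summed family over 12 libraries were ARHGEF37 (Pearson r 0.97), RALGDS and ABCC6 (0.95 each), BTG2 and DENND4C (0.94 each). ARHGEF37 had CPM values of 8.42, 7.69 and 9.47 in DACTPL libraries, 7.32, 7.05 and 8.63 in DAC libraries and 8.48, 9.20 and 10.9 in TPL libraries, against 8.85, 8.97 and 9.09 in Ctrl libraries. As for the family, its highest library was TPL replicate 3 and its lowest DAC replicate 2. The 3 least like were LEPREL1, C9orf40 and NAAA (r -0.94 each), and LEPREL1 had CPM values of 21.4, 21.1 and 19.4 in DACTPL libraries, 25.3, 25.3 and 20.9 in DAC libraries and 19.9, 20.96 and 16.1 in TPL libraries, against 19.5, 21.2 and 18.5 in Ctrl libraries, lowest in TPL replicate 3. With group means taken off, ARHGEF37 kept an r of 0.97 and ranked number 4. These are descriptions over 12 libraries chosen from many entries, and all share depth and library composition.

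The label of the cells was checked against markers, given in this paragraph as CPM of the library total. KRT8, KRT18 and KRT19, keratins of simple epithelium, had 592 to 959, 634 to 1082 and 327 to 416 CPM, and the adhesion proteins CDH1 and EPCAM had 238 to 271 and 108 to 141 CPM. Of luminal prostate markers, FOLH1 was at 0 in all libraries, KLK2, KLK3 and TMPRSS2 reached at most 0.063, 0.024 and 0.44 CPM, ACPP had 0.613 to 2.14 and SLC45A3 6.29 to 8.36 CPM. Of the blood markers, HBB was at 0, CD3E and PTPRC reached at most 0.031 and 0.80 CPM, LYZ had 3.22 to 6.02 and CD68 27.2 to 42.8 CPM. The sum of the blood list, most of it CD68, was 32.9 to 34.3 CPM in DACTPL, 31.5 to 35.02 in DAC and 35.5 to 46.2 in TPL, against 42.6 to 47.9 CPM in Ctrl, so the DACTPL and DAC libraries lay below the Ctrl libraries in this sum. Of 3 blood markers tested by edgeR, 1 rose and 1 fell in DACTPL and in DAC, each against Ctrl, beside 13.5% and 9.87% of all genes called. Of 6 stromal markers, DCN, LUM, COL1A2, COL3A1 and PDGFRB reached at most 0.032, 0.19, 0.52, 0.31 and 0.94 CPM and COL1A1 had 6.98 to 12.995 CPM. Their sum was 13.1 to 14.6 CPM in DACTPL, 8.26 to 12.5 in DAC and 7.83 to 11.5 in TPL, against 8.51 to 11.1 CPM in Ctrl, with the DACTPL libraries above all others. Of 3 stromal markers tested by edgeR, 2 rose and 0 fell in DACTPL and in DAC, each against Ctrl. The epithelial sum was 2368 to 2540 CPM in DACTPL, 2510 to 2808 in DAC and 1954 to 2295 in TPL, against 2209 to 2314 CPM in Ctrl. The DACTPL and DAC libraries thus lay above the Ctrl libraries in that sum. The part of these markers in the results was not tested. In bulk RNA, fewer cells with a given level and less RNA per cell cannot be told apart.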

How the data were processed

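Total RNA of DU145 cells was sequenced as stranded, paired reads of 100 bases in 12 libraries, per the labels' protocols. The authors deposited expected counts and TPM per gene. Both came from RSEM 1.2.09 and genome build hg19, as listed per the submitters' processing notes. The authors' deposited DESeq2 comparisons, under R 4.0.4 per the same notes, give log2 fold changes, a test statistic (a score, per the file headers) and p-values. The aligner, the annotation and the treatment of multiply mapped reads are not given in the sources used here. RSEM divides a read among the entries it matches, so members that share sequence have uncertain levels of their own, and their sum is less affected unless reads of MT-RNR2 are among them.

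The members and lists were chosen with earlier results of these data known. Groups were taken from the labels. Expected counts were rounded to whole numbers and tested with edgeR 4.0.16 (quasi-likelihood test, robust, TMM, filterByExpr by group) in R 4.3.3 in 1 fit of 12 libraries, with Benjamini-Hochberg adjustment over 15890 genes tested of 26341, called below 0.05. All 10 members were tested. A second fit replaced the 10 rows by their sum. Shares were compared by exact permutation of 20 regroupings (scipy 1.17.1). Alternatives were RLE size factors, library sizes alone, no filter, DESeq2 1.42.0, limma 3.58.1 on log2(TPM + 1), a replicate block, small structural RNAs (3084 entries) left out, and libraries left out. The fits were tested on simulated data. Sequences were compared with Biopython 1.88. Depth was 26430984 to 47022176 counts a library. PCR copies are not independent molecules, so intervals cover counting error only. Named besides the members were, from each list, up to 4 called genes with the largest change and at least 1 CPM, or the 2 most abundant genes of a list without calls, and the 5 most and 3 least alike genes; IL6ST, BAX and IGFBP3 were added after their values were seen. Some marker genes are not reported here. A z-score table and a table of all treatments against Ctrl were not used.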

Additional observations from a re-analysis of the deposited data

How the results depend on the processing

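Of 1198 member values under 20 other settings, 21 passed an adjusted p of 0.05, of which 12 were without the replicates numbered 3 of all groups, 4 with limma on log2(TPM + 1), 4 with the replicate block and 1 without DAC replicate 3. The 12 were 3 in DACTPL and 5 in DAC against Ctrl and 4 in DACTPL against TPL, beside 24%, 17.6% and 23.3% of all genes. Those with limma were 1 in DACTPL, 2 in DAC and 1 in TPL against Ctrl, beside 4764, 1839 and 10831 of 15890 genes called. With the block all 4 were in DAC against Ctrl, beside 16.2% of all genes. The 1 without DAC replicate 3 stood beside 1540 of 16055 genes called. Of 120 values of the summed family 2 passed, and 10 had the other sign, none of those passing. Without the replicates numbered 3, the summed family stood at -0.19 in DACTPL against Ctrl (adjusted p = 0.0428), -0.31 in DAC against Ctrl (adjusted p = 0.00501) and -0.026 in TPL against Ctrl (adjusted p = 0.827). Those replicates had the highest family share of each group, so this fit cannot decide whether the family differed. With limma it stood at -0.28 in TPL against Ctrl and 0.024 in DACTPL against TPL. Over all settings the family lay between -0.26 and -0.016 in DACTPL against Ctrl (adjusted p 0.0428 to 0.962), between -0.33 and -0.14 in DAC against Ctrl (adjusted p 0.00501 to 0.683), and between -0.28 and 0.18 in TPL against Ctrl (adjusted p 0.140 to 0.919). RMRP and MRPL49 turned to -0.041 and -0.029 with limma in TPL against Ctrl. Leaving out single libraries, the family lay at -0.044 to 0.185 in TPL against Ctrl (the lowest without TPL replicate 3) and at -0.090 to 0.150 in the interaction. The causes were not tested.

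The difference in family share became -1.77, -2.21 and -1.82 percentage points of TPM in DACTPL, DAC and TPL against Ctrl. With small structural RNAs left out of TPM it was -1.36 in DACTPL and -2.78 in DAC against Ctrl and 1.41 in DACTPL against DAC. The MTRNR2L2 share of family TPM differed by 0.021 points in DAC against Ctrl. Leaving out single libraries, the share of counts differed by -1.03 to -0.247 points in DACTPL, -1.57 to -0.775 in DAC and -0.579 to 0.520 in TPL against Ctrl, by 0.026 to 0.971 in DACTPL against DAC and by -1.18 to -0.019 in DACTPL against TPL.

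Counts of all genes called, 2143 in DACTPL against Ctrl, 1569 in DAC against Ctrl, 392 in TPL against Ctrl, 5 in DACTPL against DAC, 1671 in DACTPL against TPL and 1 in the interaction, moved more than the members. They were 763 in TPL against Ctrl and 15 in the interaction with library sizes alone. They were 8 in the interaction with no filter, and 847 in TPL against Ctrl, 84 in DACTPL against DAC and 121 in the interaction with DESeq2. With limma they were 4764 in DACTPL against Ctrl, 10831 in TPL against Ctrl, 5639 in DACTPL against TPL and 5098 in the interaction. Without the replicates numbered 3 they were 3815 in DACTPL against Ctrl, 2806 in DAC against Ctrl, 1865 in TPL against Ctrl, 2134 in DACTPL against DAC, 3709 in DACTPL against TPL and 2049 in the interaction. Leaving out single libraries they ranged over 1146 to 3065 in DACTPL against Ctrl, 753 to 2345 in DAC against Ctrl, 25 to 929 in TPL against Ctrl, 0 to 11 in DACTPL against DAC, 955 to 3285 in DACTPL against TPL and 0 to 950 in the interaction.

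Replicate numbers did not pair the libraries throughout. Deviations of same-numbered libraries of different groups correlated at -0.27 to 0.62 over 18 pairs (median 0.23), against a median of -0.14 over 36 pairs with different numbers. All 3 pairs were over 0.1 between TPL and Ctrl (0.14 to 0.44) and between DAC and TPL (0.24 to 0.62), and not all between the other groups, with a lowest of 0.067 between DAC and Ctrl. With the replicate block, genes called were 3396 in DACTPL against Ctrl, 2574 in DAC against Ctrl, 1288 in TPL against Ctrl, 580 in DACTPL against DAC and 2579 in DACTPL against TPL, and 4 members (MTRNR2L1, MTRNR2L4, MTRNR2L6 and MTRNR2L9) were called in DAC against Ctrl (adjusted p 0.0206 to 0.0449, beside 16.2% of all genes), with the summed family at -0.22 (adjusted p = 0.0600).

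Counts of MTRNR2L4, MTRNR2L5 and MTRNR2L7, 15 to 198 a library, limit what can be said of them. In the fit of 12 libraries the 95% interval of the family's fold was 0.713 to 1.06 in DAC against Ctrl. Without the replicates numbered 3, which had the highest family share of each group, shifts inside that interval passed.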
